A study of Mus musculus with 2 samples.

Results

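Mural cells, the pericytes and vascular smooth muscle cells of the limb, were sought in a single-cell library of mouse limb muscle at E15.5 (embryonic day). A droplet barcode was chosen if it held at least 500 detected genes, under 10% mitochondrial UMIs, at least 1 UMI of 3 or more of the 7 markers Rgs5, Kcnj8, Abcc9, Notch3, Cspg4, Higd1b and Ndufa4l2, and no UMI of the endothelial cadherin gene Cdh5. A UMI (unique molecular identifier) marks 1 captured RNA molecule. The rule chose 314 of the 4106 barcodes that passed the first 2 filters, a share of 7.65% (95% exact binomial interval 6.85% to 8.50%), and the other 3792 served as the comparison. Because these UMIs chose the members, every difference below is a description of 1 library with no test, and every interval covers counting error only.

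The series holds 2 libraries of wild-type (WT) C57Bl/6 mouse embryos, 1 at E12.5 and 1 at E15.5, with forelimb and hindlimb muscle in the same library. Tissue was dissociated mechanically and with trypsin, and both libraries were made with a 10x 3′ kit. The E12.5 library kept 12271 of 12941 barcodes at a median of 2453 UMIs, and the E15.5 library kept 4106 of 5780 at a median of 9518. Each age thus had no replicate library, the labels used here do not give the number of embryos, and 17 barcode sequences occurred in both libraries.

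Mural cells lie on the outside of blood vessels. Pericytes share a basement membrane with the endothelium of capillaries, whereas smooth muscle cells wrap arteries and veins and contract through smooth muscle actin and myosin. Endothelial cells recruit both by secreting PDGF-B, which binds the receptor PDGFRβ on the mural cell, and arterial smooth muscle also needs Notch signals received through NOTCH3. The rule's markers come from several of these functions. Rgs5 encodes a regulator of G-protein signalling, Kcnj8 and Abcc9 the pore and the regulatory subunit of a vascular potassium channel, Cspg4 the proteoglycan NG2, and Ndufa4l2 and Higd1b mitochondrial proteins.

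The label held for a minority of the chosen barcodes. Most had just 3 markers (192 barcodes), 52 had 4, 24 had 5, 35 had 6 and 11 had all 7. Genes outside the rule separated these groups. Of the barcodes with 3 markers, 161 (83.9%) also held at least 3 of the 8 fibroblast markers Pdgfra, Dpt, Lum, Dcn, Osr1, Twist2, Clec3b and Mfap5, and so did 43 (82.7%) of those with 4. Among the barcodes with 5, 6 and 7 markers the numbers were 11 of 24, 9 of 35 and 0 of 11. In barcodes with 0, 1 and 2 markers the shares were 38.5%, 60.4% and 71.1%, and in all other barcodes 49.6%. These shares were not thinned, and median depth rose from 7847 UMIs with 0 markers to 12296 with 3. The summed level of 27 further mural genes had a median of 10.7 UMIs per 10000 with 3 markers, 13.5 with 4, 30.2 with 5, 36.4 with 6 and 43.6 with 7, against 6.32, 8.09 and 8.35 in barcodes with 0, 1 and 2 markers. The 314 barcodes are therefore described as rule members in 3 tiers, with 3, with 4 and with 5 to 7 markers, and the tiers were set after these values were seen.

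**Figure D1:**
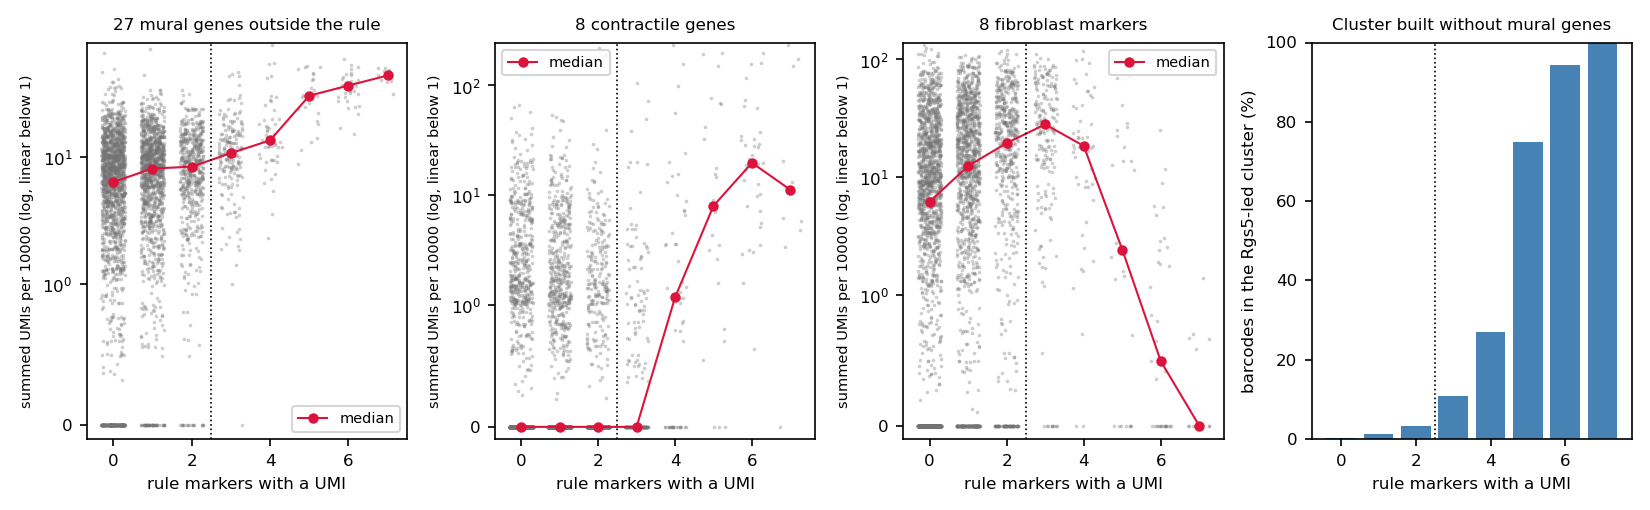
Each grey point is an E15.5 barcode without a Cdh5 UMI, placed by its number of rule markers with a UMI (x axis, jittered); the y axes give the summed UMIs per 10000 of 27 mural genes outside the rule, 8 contractile genes and 8 fibroblast markers, with medians in red. Bars give the percentage of barcodes in the cluster led by Rgs5, and the dotted line marks the rule's threshold: the mural median is 8.35 with 2 markers and 10.7 with 3, and exceeds 30 only from 5 markers on.

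The tiers were compared with a clustering of the same library built without 68 mural and contractile genes. Among its 31 clusters, the one holding most barcodes with 5 to 7 markers was led by Rgs5, Gucy1a1, Acta2, Myh11 and Tagln when all genes were read back. It held 62 of the 70 barcodes with 5 to 7 markers, 14 of the 52 with 4 and 21 of the 192 with 3, together 97 members (30.9%), and 45 barcodes that the rule did not choose. Of these 45, 40 (88.9%) held at least 3 fibroblast markers, and 38 belong to the 1844 barcodes of the fibroblast class used below for comparison, so that cluster and class overlap. The other 217 members were spread over clusters led by other genes, with 55 in a cluster led by Fst, Sfrp4 and Clec3b, 41 in one led by Dpt, 28 in one led by Esco2 and histone genes, and 25 in one led by Aldh1a3.

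Members of the Dpt-led cluster met the rule without Rgs5. Dpt encodes dermatopontin, a matrix protein of connective tissue, and 123 of the cluster's 124 barcodes held a UMI of it. Kcnj8 had 96.4 CPM there (UMIs of the gene per 1000000 summed UMIs; 81.1 to 114) and Ndufa4l2 had 180 CPM (159 to 203), with a UMI in 52.4% and 67.7% of the barcodes. The corresponding levels in the Rgs5-led cluster were 137 CPM (121 to 154) and 278 CPM (255 to 302). Rgs5 itself had 0 UMIs in the Dpt-led cluster and 597 CPM (564 to 632) in the Rgs5-led one, and Mcam, an adhesion molecule of mural and endothelial cells, had 4.82 CPM against 143 CPM. Thus 41 barcodes of the Dpt-led cluster were members without any Rgs5 UMI, chosen on markers such as Kcnj8, Abcc9 and Ndufa4l2.

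Depth also moved with membership. The members had a median of 13844 UMIs and the other barcodes 9202.5, and the tiers with 3, 4 and 5 to 7 markers had 12296, 15320 and 15579. High simulated-doublet scores, which mark droplets that may hold more than 1 cell, were found in 25 members (7.96%) and 165 other barcodes (4.35%), and by tier in 12, 8 and 5 members. Doublets were scored and not removed, and their part in the tiers was not tested. Leaving out the 5 from the highest tier changed Rgs5 there from 909 to 1027 CPM, Dpt from 57.1 to 34.9 CPM and Pitx1 from 20.7 to 9.43 CPM.

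At the threshold itself, 560 barcodes stood just outside with 2 markers and 192 just inside with 3. Pdgfrb was seen in 37.1% of the first and 38.5% of the second, Dcn in 75.7% and 87.5%, and Acta2 in 17.0% and 16.7%. Other genes outside the rule moved more, with Mcam at 10.9% and 18.8%, Heyl at 9.46% and 14.1%, and Gucy1a1 at 7.32% and 13.0%. Tagln went the other way, at 25.2% and 19.8%. The Rgs5-led cluster held 3.39% of the first and 10.9% of the second. Another 8 barcodes met every other criterion and were left out for Cdh5, 7 of them for a single UMI, and 3 of these 8 lay in the Rgs5-led cluster.

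The 7 rule genes did not mark the members equally. Rgs5 was seen in 105 of the 314 members, 76 of which lay in the Rgs5-led cluster. Barcodes with 3 markers had 0 to 12 Rgs5 UMIs with a median of 0, those with 4 had 0 to 18 with a median of 0, and those with 5 to 7 had 0 to 55 with a median of 14. The summed level was 25.3 CPM (19.6 to 32.2), 66.2 CPM and 909 CPM (856 to 964), against 3.12 CPM in 1844 barcodes of a fibroblast class and 0 UMIs in 140 barcodes of an endothelial class. These classes and a muscle class of 300 hold at least 3 of 8 markers of their own type and contain no rule member. They hold fewer than 3 markers of each other's lists and of the rule, but further cell types were not excluded. At least 3 of 8 tenocyte markers were seen in 423 barcodes (22.9%) of the fibroblast class. At least 3 of 8 erythroid genes were seen in 60 barcodes (20%) of the muscle class. After every barcode was thinned to 2000 UMIs, 4.69%, 13.5% and 60.0% of the tiers kept an Rgs5 UMI (14.1%, 23.1% and 94.3% unthinned), against 0.764% of the fibroblast class and 0% of the endothelial class.

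The channel genes were less selective than Rgs5. Kcnj8 had 83.5 CPM (72.8 to 95.3) with 3 markers and 180 CPM (157 to 206) with 5 to 7, a log2 ratio of 1.11 (0.83 to 1.39). Abcc9, which lies 16.2 kb from Kcnj8 on chromosome 6, had 89.6 CPM (78.5 to 102) and 315 CPM (284 to 348), a log2 ratio of 1.81 (1.58 to 2.05). Their closest relatives, Kcnj11 and Abcc8, which form the channel of pancreatic beta cells, had 0 UMIs and 1 UMI in the highest tier. Kcnj8 and Abcc9 chose the members and set the tiers, so their presence in every tier is part of the rule. The fibroblast class held 11.9 CPM of Kcnj8 and 17.6 CPM of Abcc9.

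The remaining rule genes also set the tiers, so their higher levels with 5 to 7 markers are part of that choice. Their ratios between tiers differed. Notch3, the receptor, had 33.3 CPM (26.7 to 41.1), 65.0 CPM and 191 CPM (167 to 217) in the tiers, but 49.0 CPM in the muscle class. Cspg4 had 85.4, 110 and 160 CPM, the smallest ratio between tiers of the 7 genes, and 43.0 CPM in the fibroblast class. Ndufa4l2 had 131 CPM (117 to 145), 101 CPM and 399 CPM (365 to 437), so that its level with 4 markers lay below that with 3. Higd1b was scarce, with 2, 0 and 20 UMIs, and 16 of the 70 barcodes with 5 to 7 markers held it.

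Each marker can be read in barcodes chosen by at least 3 of the other 6, which removes it from its own choice. Rgs5 was then seen in 27.2% (22.1% to 32.7%) of the chosen barcodes and 2.84% (2.33% to 3.44%) of the rest, Kcnj8 in 46.3% and 6.93%, Abcc9 in 61.5% and 10.5%, and Ndufa4l2 in 54.1% and 14.4%. Notch3 was seen in 40.3% and 16.6%, Cspg4 in 56.4% and 27.6%, and Higd1b in 5.13% and 0.194%. The gap between chosen and other barcodes was widest in ratio for Higd1b and Rgs5 and narrowest for Cspg4 and Notch3. The Higd1b share rests on 16 of 312 chosen barcodes. These shares were not thinned, and median depth was 7847 UMIs with 0 markers and 12296 with 3, so part of each gap can reflect depth.

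Across the whole rule, 362 of 13871 genes with at least 50 UMIs were at least 2-fold higher in members than in other barcodes (2.61%) and 1252 were at least 2-fold lower (9.03%). Measured against the fibroblast class alone, the shares were 4.82% and 3.55%, and against the endothelial class 21.7% and 11.4%. The 25 genes highest in members outside the rule include both subunits of soluble guanylate cyclase, the receptor through which nitric oxide relaxes smooth muscle. Gucy1a1 had a log2 ratio of 4.74 and Gucy1b1 of 2.99. Further genes were Ccl11, a chemokine (3.65), Cox4i2, a subunit of respiratory complex IV (2.92), Itga1, a collagen-binding integrin (2.70), Heyl, a Notch target (2.48), and Ednra, the endothelin A receptor (1.86). Of these 25, Col5a3, a fibrillar collagen chain, ran the other way between tiers, with 105 CPM (93.2 to 119) at 3 markers and 37.2 CPM (27.1 to 49.8) at 5 to 7. Among the 10 lowest were the transcription factor genes Mecom (log2 ratio -1.88), Foxp2 (-1.28) and Pitx1 (-1.05).

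**Figure D2:**
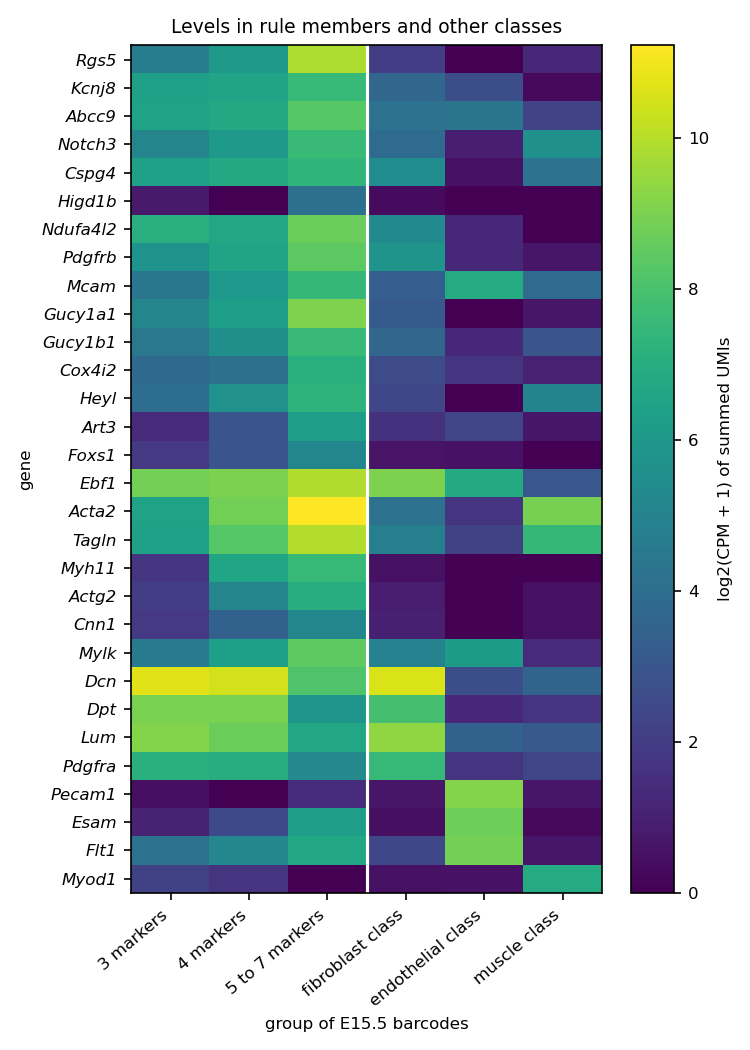
Rows are genes and columns are groups of E15.5 barcodes: the rule members by tier, left of the white line, and 3 classes without members; colour gives log2(CPM + 1) of summed UMIs. The tier with 5 to 7 markers stands apart in Rgs5, Gucy1a1, Acta2 and Art3, and the tiers with 3 and 4 markers share Dcn, Dpt, Lum and Pdgfra with the fibroblast class.

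Between the tiers, 1140 of the 13871 genes (8.22%) were at least 2-fold higher with 5 to 7 markers than with 3, and 1846 (13.3%) at least 2-fold lower. Of the 24 measured genes among the 27 further mural genes, 18 were higher and 1 was lower, with a median log2 ratio of 2.83 where the median of all genes was -0.0050. Pdgfrb, which encodes the receptor for PDGF-B, belongs to this list. It had 0 to 11 UMIs per barcode with 3 markers (median 0), 0 to 15 with 4 (median 1) and 0 to 26 with 5 to 7 (median 5). In CPM this was 53.6 (45.1 to 63.3), 93.1 and 337 (305 to 371), and the fibroblast class had 54.9. The tier with 3 markers and the fibroblast class thus held Pdgfrb at nearly the same level, and after thinning 11.5% and 9.55% of them kept a UMI, against 48.6% with 5 to 7 markers and 0% in the endothelial class.

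Gucy1a1 had 32.9 CPM (26.3 to 40.7) with 3 markers and 522 CPM (482 to 564) with 5 to 7, where it ranged from 0 to 32 UMIs with a median of 8.5. Itga1 had 39.4 and 428 CPM (log2 ratio 3.44, 3.13 to 3.76), and Cox4i2 13.4 and 140 CPM (3.38, 2.85 to 3.95). The ubiquitous counterpart of the last, Cox4i1, had 667 and 859 CPM, and Ndufa4, the counterpart of Ndufa4l2, 514 and 371 CPM. Cox4i2 thus differed more between these tiers than Cox4i1, whereas Ndufa4l2 is a rule gene and its difference belongs to the choice of the tiers. Art3, an ADP-ribosyltransferase gene, had 4 UMIs with 3 markers and 91 with 5 to 7, and Rgs4, a relative of Rgs5 whose gene lies 45.7 kb away on chromosome 1, had 7 and 67. Not all genes used for pericytes followed: Cd248 had 186 CPM with 3 markers and 131 with 5 to 7, Anpep 27.6 and 10.8, and Tbx18 53.6 and 46.3.

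The fibroblast and matrix genes ran in the opposite direction. All 8 fibroblast markers were at least 2-fold lower with 5 to 7 markers than with 3 (median log2 ratio -2.21), as were 14 of 19 interstitial matrix genes (-1.39). Dcn, the proteoglycan decorin, had 1670 CPM (1621 to 1721) with 3 markers, 1413 with 4 and 282 (253 to 314) with 5 to 7, and 1527 in the fibroblast class. Col1a1, a chain of type I collagen, had 5177, 4082 and 1090 CPM in the same order. Against the fibroblast class, the tier with 3 markers had none of 19 interstitial matrix genes past 2-fold. That count is near the shares of all genes, 3.92% higher and 3.66% lower. Lum, Dcn and Mfap5 of this list are also among the 8 markers that chose the fibroblast class. Type IV collagen, the network of basement membranes, was instead higher at 5 to 7 markers: Col4a1 had 301 and 1202 CPM and Col4a2 166 and 598. The basement membrane list as a whole had 5 of 15 genes higher and 1 lower, with a median log2 ratio of 0.16.

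**Figure D3:**
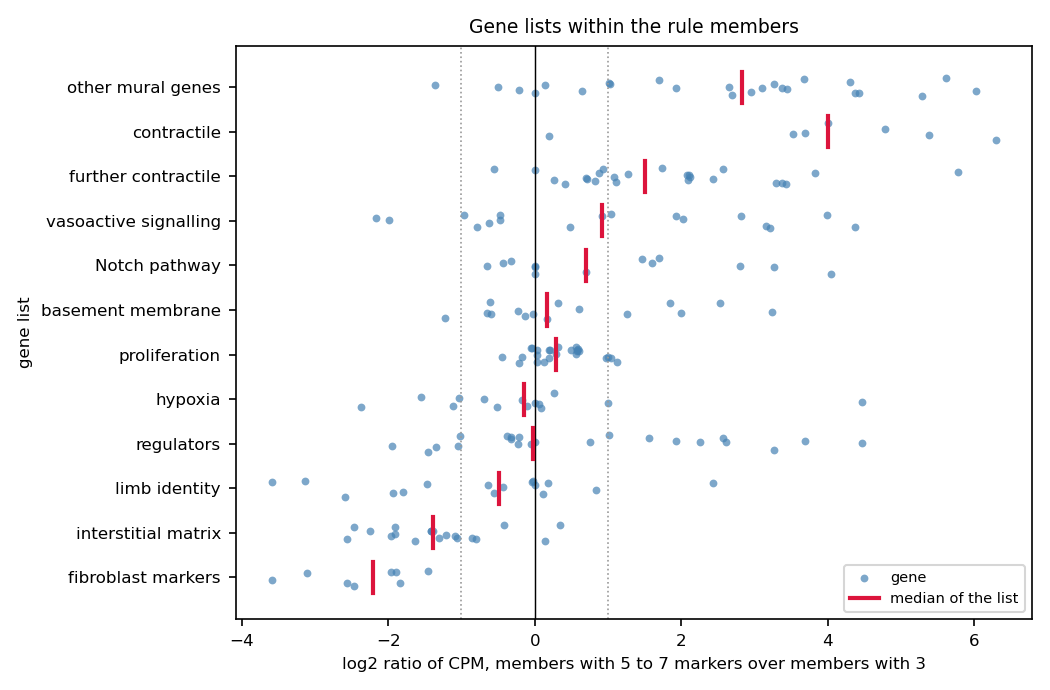
Each blue point is a gene, placed by the log2 ratio of its CPM in members with 5 to 7 markers over members with 3 (x axis), by gene list (y axis); red bars are list medians and dotted lines mark 2-fold. A gene with 0 UMIs on one side is placed at the bound that 3 counts allow, or at 0 where that bound would change its sign. The mural and contractile medians lie at 2.83 and 4, the fibroblast median at -2.21.

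Notch and vasoactive genes, through which the vessel wall receives signals, were counted next. Of 13 Notch pathway genes, 6 were at least 2-fold higher with 5 to 7 markers than with 3 and none was lower, against 8.22% and 13.3% of all genes. Heyl had 15.7 CPM (11.3 to 21.3) and 151 CPM (130 to 175), Hey2, a related target, 8.81 and 61.2 CPM, Nrarp, a feedback inhibitor, 3.45 and 57.1 CPM, and the ligand gene Jag1 39.4 and 108 CPM. Hes1, a target used in many tissues, differed little and lay the other way at 943 and 757 CPM. Among 17 measured vasoactive signalling genes, 8 were higher and 2 lower, the latter near the 13.3% of all genes. Ednra had 48.3 and 184 CPM, the sphingosine receptor gene S1pr3 93.5 and 193 CPM, and the adrenergic receptor gene Adra2a 6.51 and 26.5 CPM. Angpt1, a ligand for the endothelial receptor TIE2, had 6.13 CPM (3.50 to 9.95) and 41.3 CPM (30.7 to 54.5).

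Of 22 measured transcription factor genes, 9 were at least 2-fold higher with 5 to 7 markers than with 3 and 5 lower, where all genes had 8.22% and 13.3%. Foxs1 had 7 UMIs with 3 markers and 42 with 5 to 7, Tbx2 had 10.3 and 49.6 CPM, Mef2c 78.5 and 466 CPM, and Nr2f2, a venous and mesenchymal regulator, 79.7 and 303 CPM. Lower were the mesenchymal factor genes Twist1 (244 and 95.9 CPM) and Osr1 (136 and 49.6 CPM). Foxf2 and Zic1, used as markers of brain pericytes, had 0 UMIs in the highest tier, which allows up to 2.48 CPM. The limb mesenchyme factor Prrx1 was present throughout, at 282 and 477 CPM, while Pitx1, a hindlimb factor, had 57.4 and 20.7 CPM and Tbx5, a forelimb factor, 22.2 and 5.79 CPM.

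Several genes known from endothelium were found in the highest tier in which 4 of the 8 endothelial markers were at or near 0. Cdh5 was 0 by the rule, Tie1 had 0 UMIs, Cldn5 1 and Pecam1 2 in the 70 barcodes, and the endothelial class had 570 CPM of Pecam1. The list also holds Kdr with 4 UMIs, Egfl7 with 19 (15.7 CPM, against 12.3 with 3 markers) and Emcn with 42 (34.7 CPM, against 18.8 with 3 markers). Its last gene, Esam, an adhesion molecule, had 1.15 CPM with 3 markers and 74.4 CPM (59.8 to 91.5) with 5 to 7, where 47.1% of barcodes held a UMI. Flt1, a VEGF receptor, had 17.2 and 106 CPM (88.3 to 126), Epas1, a hypoxia-inducible factor, 1.92 and 42.2 CPM, and Gja4, a gap junction protein of arteries, 0.766 and 29.8 CPM. Each lay between the tier with 3 markers and the endothelial class, which had 426, 475, 147 and 111 CPM of these 4 genes.

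The summed endothelial list stood at 131 CPM (111 to 153) with 5 to 7 markers, 45.2 with 3 and 343 in the other barcodes. Of the 70 barcodes, 6 (8.57%) held 3 or more of its 8 genes. That share, not thinned, was 3.88% in the other barcodes and 0% in the tiers with 3 and with 4 markers. The muscle and immune lists were low in this tier: the 8 muscle genes summed to 9.92 CPM with Pax7, Myf5, Myod1 and Chrna1 at 0, and the 8 immune genes to 1.65 CPM with 7 of them at 0. The tenocyte list was not low, at 1180 CPM (1120 to 1243) against 1103 in the other barcodes. The endothelial class also had 766 CPM of this list with 0 barcodes holding 3 of its genes, so the sum alone does not mark tenocytes. Scx, Mkx, Thbs4, Kera and Chodl were at least 2-fold lower in this tier than in the other barcodes, and the list's other 3 genes lay within 2-fold. Of the 70 barcodes, 16 (22.9%) held 3 or more tenocyte genes, against 19.3% of the other barcodes. At least 3 of 8 erythroid genes were seen in 15 of the 70 (21.4%), against 9.36% of the other barcodes. The fibroblast list summed to 629 CPM (585 to 676) with 5 to 7 markers, 3507 with 3 markers and 1680 in the other barcodes, and no fibroblast marker was at 0. Haemoglobin genes took 0.260% of UMIs with 3 markers and 0.0181% with 5 to 7, and the largest value, 2157 erythroid UMIs per 10000, came from a single barcode with 3 markers. The part of these other types' RNA in the tiers was not tested.

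Contractile genes divided the members further. The list of 8 holds Acta2 (smooth muscle actin), Tagln (transgelin), Myh11 (smooth muscle myosin), Cnn1 (calponin), Actg2, Lmod1, Des and Myocd, the coactivator that switches the programme on. At least 3 of them were seen in 57 members (18.2%), made up of 8 of 192 (4.17%), 10 of 52 (19.2%) and 39 of 70 (55.7%) by tier. After thinning to 2000 UMIs the members' share was 6.37% (3.93% to 9.67%) and that of the other barcodes 0.483% (3.11% unthinned), and the tiers had 0.521%, 7.69% and 21.4%. In the endothelial class, with a median of 12363 UMIs, none of 140 barcodes had 3 of them, which allows a share of up to 2.14%. The muscle class, with a median of 15305 UMIs, had 25% unthinned and 2.70% thinned, so that unthinned counts of contractile genes alone do not single out members.

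Acta2 ranged from 0 to 296 UMIs in the 70 barcodes with 5 to 7 markers, with a median of 17, and summed to 2387 CPM (2300 to 2475). It had 86.6 CPM with 3 markers, 455 with 4 and 481 in the muscle class. Myh11 was seen in 26 of the 70, with up to 39 UMIs, and had 180 CPM (157 to 206), against 2.30 CPM with 3 markers, 97.5 with 4 and 0 UMIs in the muscle and endothelial classes. Of the 70 barcodes, 4 held none of the 8 genes, 27 held 1 or 2, of which 20 held 2, and 9 of the 39 contractile barcodes held exactly 3, so that 29 lay at or next to the dividing line. The number of contractile genes seen thus showed no clear break at the dividing line. Whether the barcodes form separate types was not tested.

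Within the 70 barcodes, 7.58% of genes were at least 2-fold higher in the 39 contractile barcodes than in the other 31 and 9.44% at least 2-fold lower. None of the 6 measured rule genes passed 2-fold in either direction. Rgs5 had 1102 and 625 CPM, Abcc9 289 and 353 CPM, and Kcnj8 171 and 194 CPM. The rule genes chose all 70 barcodes, so the lack of a 2-fold difference can be part of that choice. With so few genes, the count also cannot be told apart from the shares of all genes, 7.58% and 9.44%. Of 24 further contractile genes, 13 were higher and none lower, among them Mylk, the myosin light chain kinase (516 and 89.9 CPM), and Myl9, a myosin light chain (1434 and 384 CPM). Hey2 (94.5 and 12.3 CPM), Jag1 (149 and 49.0 CPM), the vasopressin receptor gene Avpr1a (37.5 and 2.04 CPM) and the receptor ligand gene Apela (261 and 14.3 CPM) were also higher on the contractile side. Pdgfb itself, the endothelial ligand, had 93.1 CPM there and 2.04 CPM in the other 31, and was seen in 25.7% of the 70 barcodes. On the other side lay Steap4 (6.95 and 38.8 CPM), Vtn (16.7 and 42.9 CPM), Cygb, a globin of pericytes and fibroblasts (52.8 and 147 CPM), and Dpt (2.78 and 137 CPM). Fibroblast genes moved with the division: 7 of the 8 fibroblast markers were at least 2-fold lower on the contractile side (median log2 ratio -2.09), as were 6 of 19 interstitial matrix genes. Of the 8 barcodes outside the Rgs5-led cluster, 7 were among the 31, and the part of fibroblast RNA in the division was not tested. The 8 contractile genes chose the 39 barcodes, so their own difference is part of that choice.

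**Figure D4:**
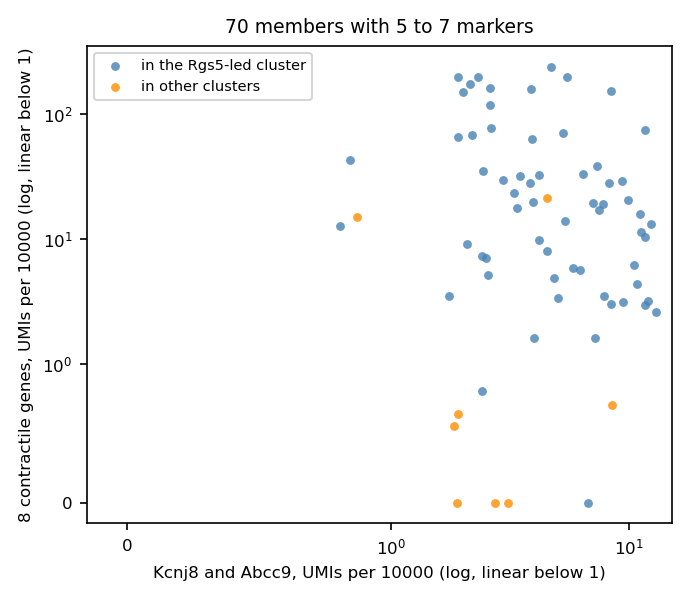
Each point is 1 of the 70 members with 5 to 7 markers; the x axis gives the UMIs of Kcnj8 and Abcc9 per 10000 and the y axis those of the 8 contractile genes, both on a log scale that is linear below 1. Both axes spread widely (Spearman rho -0.17), and the 8 barcodes outside the Rgs5-led cluster (orange) lie mostly at low contractile levels. Whether the points form separate groups was not tested.

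Across these 70 barcodes the contractile sum and the sum of Kcnj8 and Abcc9 had a Spearman correlation of -0.17, the contractile sum and Rgs5 0.28, and Kcnj8 and Abcc9 0.40. The points share 1 library and differ in depth, and these values are descriptions.

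Contractile genes are known to be switched on by serum response factor, which binds a stretch called the CArG box. The 250 bases before the RefSeq start of Acta2 and Myl9 (mouse build GRCm38.p6) were chosen for display after the search, because they held matches and both genes were high in the tier with 5 to 7 markers. Each window held 2 places with a CArG box or a stretch 1 letter away from it, and these 4 places are shown with 10 bases on each side, the match in capitals:
Acta2 first: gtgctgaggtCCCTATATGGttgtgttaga
Acta2 second: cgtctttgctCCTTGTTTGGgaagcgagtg
Myl9 first: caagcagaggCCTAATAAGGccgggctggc
Myl9 second: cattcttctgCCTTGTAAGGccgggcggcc

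The Acta2 stretches lie at chr19:34255438-34255467 and chr19:34255388-34255417 on the minus strand, in the first exon and 5′ UTR of a longer GENCODE vM21 model that starts further upstream. The Myl9 stretches lie at chr2:156775293-156775322 and chr2:156775355-156775384 on the plus strand, before any GENCODE exon of the gene. The first Myl9 match is a full CArG box and the other 3 differ from it in 1 letter. On either strand, a full CArG box was found in 1.47% of 32851 RefSeq windows of 250 bases, and a full or 1-letter-off box in 8.59%; the looser search was chosen after the sequences were seen. The motif TGGGAA, bound by the Notch cofactor RBPJ and found in 21.6% of windows, overlapped the second Acta2 match. Most contractile windows had neither form. A full box was found for none of the 4 contractile genes with a window and 2 of 22 further contractile genes (Myl9 and Srf), and a full or 1-letter-off box for 1 of 4 and 4 of 22. The 5 rule genes with a window had neither. These matches are descriptions of the letters and not measured binding.

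Proliferation genes were slightly higher in members. The 25 genes had a median log2 ratio of 0.34 over the other barcodes where all genes had -0.0014, and 3 of the 25 were at least 2-fold higher with 5 to 7 markers than with 3, a share near the 8.22% of all genes. Top2a, a topoisomerase of dividing cells, had 724 CPM (692 to 758), 1154 CPM and 889 CPM (837 to 944) in the tiers and 611 in the other barcodes. Mki67 was seen in 34.4% of barcodes with 3 markers and 65.7% with 5 to 7, at 286 and 426 CPM. These shares were not thinned, and the tiers had median depths of 12296 and 15579 UMIs. The median ratio was 0.20 without barcodes carrying markers of at least 2 other cell types, and 0.083 for members in the Rgs5-led cluster.

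At E12.5 the same rule chose 6 of 12271 barcodes (0.0489%), at a lower depth. With every barcode of both libraries thinned to 2000 UMIs, 2 of 8212 met the rule at E12.5 (0.0244%, 0.00295% to 0.0879%) and 45 of 3834 at E15.5 (1.17%, 0.857% to 1.57%). Thinning also changed which barcodes were chosen at E15.5: 40 of the 45 lay in the Rgs5-led cluster and 34 had 5 or more markers before thinning. Of the 6 E12.5 barcodes, 1 held 6 markers, 1 held 5 and 4 held 3, and 3 carried at least 3 chondrocyte or fibroblast markers beside Notch3, Cspg4 and Ndufa4l2. The barcode with 6 markers held 5 of the 8 chondrocyte markers.

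The rule genes differed between the libraries in opposite directions. Over all kept barcodes, the earlier library had 1.71 CPM of Rgs5 (1.31 to 2.21) and the later one 30.8 CPM (29.2 to 32.5), with Kcnj8 at 0.610 and 18.5 CPM, Abcc9 at 2.32 and 27.1 CPM, and Ndufa4l2 at 0.988 and 49.8 CPM. Notch3 was at 35.5 and 25.5 CPM, Cspg4 at 70.3 and 45.1 CPM, and Pdgfrb at 78.6 and 47.9 CPM. Higd1b had 0 and 29 UMIs. Acta2 was abundant at both ages, at 124 and 164 CPM, whereas Myh11 had 31 UMIs in 31 barcodes at E12.5 and 342 UMIs in 47 barcodes at E15.5. Age cannot be told apart from library, since each age had 1.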

How the data were processed

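The authors deposited raw UMI counts per gene and barcode. Per the file headers, the matrices come from Cell Ranger 4.0.0, and the submitters' processing notes also name Seurat 4.3.0 and build mm10. Each matrix lists 32285 genes. Barcodes with under 500 genes (1376 at E15.5) and then with 10% or more mitochondrial UMIs (298) were left out. The members and all gene lists were chosen with earlier results of these data known, and the tiers and the use of the Rgs5-led cluster after seeing these data.

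UMIs were summed per group and given as CPM with exact Poisson intervals; shares have exact Clopper-Pearson intervals and log2 ratios the exact conditional interval, all 95%. A gene was called past 2-fold among genes with at least 50 UMIs. For a count of 0 the limit is 3 counts, and a gene with 0 UMIs in a group is never counted as higher there. Named genes are those of 29 lists, the 25 highest and 10 lowest in members among genes seen in at least 25% of that side, and 10 each way between contractile and other members. For 1 listed gene, its own values are not reported here. Genes on overlapping strands (Abcc9, Notch3 and Ndufa4l2 each overlap another gene) were taken as deposited. Clustering used 2000 variable genes, 30 principal components, 15 neighbours and Leiden resolution 1.0 (leidenalg 0.10.2, igraph 0.11.9, scikit-learn 1.9.0, scipy 1.17.1, Python 3.11.15). Doublets were scored against simulated ones, 0.8% per 1000 barcodes, and kept. The ratio and thinning code was tested on simulated data. Positions and annotations come from GENCODE vM21 (32158 of 32285 identifiers) and promoter windows from RefSeq.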

Additional observations from a re-analysis of the deposited data

How the results depend on the processing

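No paired analysis was possible because each age had 1 library and no replicate. The alternatives kept both groups and changed 1 choice at a time; raising the minimum to 1000 genes and limiting mitochondrial UMIs to 5% moved no summary value beyond its interval or by 1.5 times. Requiring 4 markers gave a member share of 2.97%, 572 genes higher, a proliferation median of 0.58, a contractile share of 15.6% and an E15.5 share after thinning of 0.522%. Among choices added after seeing the data, requiring 5 markers gave 1.70%, 758 genes higher, 1968 lower, a proliferation median of 0.42 and a contractile share of 21.4%, and keeping members of the Rgs5-led cluster gave 2.36%, 740, 2036, 0.083 and 20.6%, with Col5a3 reversed at -0.065. The proliferation median was 0.28 without the highest doublet scores, 0.20 without barcodes carrying markers of 2 or more other classes, 0.29 without mitochondrial, ribosomal protein and haemoglobin genes, 0.50 against the fibroblast class and 0.10 against the endothelial class. Genes higher numbered 559 at a minimum of 20 UMIs, 1559 at 1 UMI, 669 against the fibroblast class (492 lower) and 3014 against the endothelial class. Thinning to 4000 UMIs gave a contractile share of 10.6% and rule shares of 2.57% at E15.5 and 0.0999% at E12.5; without thinning the first 2 were 18.2% and 7.65%. The 68 named genes checked include the 7 rule genes and the 25 highest and 10 lowest on the ratio of members over other barcodes. Many were thus past 2-fold by choice: 57 of the 68, where all genes had 2.61% higher and 9.03% lower. Of those 57, besides Col5a3, these reversed in sign: Msi2 (0.051) against the fibroblast class, and against the endothelial class Mcam (-0.80), Bok (-1.21), Mpped2 (0.60), Ecrg4 (2.86), Foxp2 (2.62), Nnat (0.39), Serinc2 (3.33), Cep41 (1.43), Pitx1 (3.96), Gas2 (2.55) and Gm13889 (-0.040). Of the 11 within 2-fold, Des (-0.51), Esam (-0.29), Gja4 (0.40) and Foxf2 changed sign under at least 1 alternative, such as 4.88 for Des and -3.64 for Gja4 against the endothelial class and 5.85 for Esam against the fibroblast class. The causes were not tested. Genes with few UMIs, such as Higd1b, and shares of barcodes with a UMI are limited by depth.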
